A study of Mus musculus with 9 samples.

Results

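The transcripts of 9 growth factors with roles in liver repair (Igf1, Hgf, Pdgfa, Pdgfb, Tgfb1, Osm, Areg, Hbegf and Vegfb) were examined in CD11b+ cells of the injured mouse liver. They were chosen by symbol with earlier results of these data known, matched to the gene IDs of the files, and are 9 of the 45777 genes in the tables. Shares over all genes tested are given beside their counts as a description. Genes chosen in this way cannot serve as a test of the set against those shares. CD11b is a surface integrin of monocytes, macrophages and neutrophils. All mice received acetaminophen (APAP), whose overdose kills hepatocytes, and livers were taken 48 hours later. The labelled groups, with 3 samples each, are APAP (mice given PBS), APAP+HEKSIRP-EV (vesicles named SIRP-EV from HEK cells, a line of human kidney origin) and APAP+SIRP-EV (SIRP-EV from MSC), called PBS, HEK-EV and MSC-EV here. Vesicles were given intravenously 8 hours after APAP. No uninjured liver and no vesicle without the SIRP name is among the groups, so both vesicle groups share that feature and differ in the cell of origin. The labels spell out neither SIRP nor MSC, give no strain, age, sex or genotype, and do not say that each sample came from a separate animal. The p-values therefore measure the spread between these samples, which may be technical.

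A liver that has lost hepatocytes is cleared and rebuilt under signals that macrophages and their neighbours secrete. Hepatocyte growth factor (Hgf) and the ligands of the epidermal growth factor receptor, such as amphiregulin (Areg) and heparin-binding EGF-like growth factor (Hbegf), are known to drive hepatocytes to divide. Insulin-like growth factor 1 (Igf1) is a growth and survival signal made by hepatocytes and macrophages. Oncostatin M (Osm) is a cytokine of the interleukin-6 family made by myeloid cells, platelet-derived growth factors (Pdgfa, Pdgfb) and transforming growth factor beta 1 (Tgfb1) act on stellate cells, and Vegfb is a ligand of the receptor encoded by Flt1.

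Values are transcripts per 1000000 (TPM), which are scaled by gene length and can be compared between genes, and are given as mean ± SD with n = 3. The tables hold no read counts, so depth in reads is unknown. Coverage divided by FPKM, a stand-in for sequencing depth, was 4.90 to 5.87 after PBS, 5.80 to 6.03 after HEK-EV and 6.13 to 6.37 after MSC-EV. All MSC-EV values lay above all others, and PBS replicate 1 was the lowest (4.90). Depth and the MSC-EV group therefore cannot be told apart, which limits every fit below with depth as a covariate. The general myeloid genes Itgam, Ptprc, Lyz2, Csf1r, Adgre1, Cd68 and Tyrobp, summed, ranged from 20257 to 25877 TPM in all samples, most of it Lyz2 (13329 to 18741 TPM). Itgam, the gene of CD11b, was at 289, 324 and 377 TPM after PBS, 339, 342 and 434 TPM after HEK-EV and 196, 235 and 255 TPM after MSC-EV (-0.53 against PBS, adjusted p = 0.0553, and -0.70 against HEK-EV, adjusted p = 0.0257). Ptprc was called lower after MSC-EV than in both other groups (-0.46, adjusted p = 0.0271, and -0.53, adjusted p = 0.0207), and Cd68 was called higher than after HEK-EV (0.33, adjusted p = 0.0443). The part of these shifts in the growth factor values was not tested. Transcripts of 14 pancreatic acinar genes, summed, were at 874 TPM in HEK-EV replicate 2 and 2506 in MSC-EV replicate 3. They were at 99.2 TPM in MSC-EV replicate 1 and 23.2 in HEK-EV replicate 1, and at 1.86 TPM or less in the other 5 samples. Each comparison was therefore also made with these transcripts as a covariate and without the 2 libraries that held most of them.

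The growth factor transcripts spanned a wide range, from Tgfb1, the most abundant, to Areg, which was nearly undetected. After PBS Tgfb1 averaged 332 ± 16.1 TPM, above 96.7% of the genes tested. Osm followed with 144 ± 37.3 and Igf1 with 58.5 ± 21.8 TPM. Hgf (23.1 ± 3.14), Pdgfb (17.6 ± 3.11) and Vegfb (14.0 ± 4.35 TPM) lay close together. The ranges of the 3 PBS samples overlapped between Hgf and Pdgfb and between Pdgfb and Vegfb, and between no other neighbours in the order. Hbegf averaged 5.75 ± 0.609 and Pdgfa 3.11 ± 1.19 TPM. The order was the same after HEK-EV. After MSC-EV Vegfb stood above Pdgfb, with no overlap of their 3 samples, and Pdgfa stood above Hbegf, with overlap.

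Areg was listed at 0 TPM in 5 of the 9 samples. The PBS samples held 0, 0.475 and 0.124 TPM, the HEK-EV samples 0.154, 0 and 0.206 TPM, and all 3 MSC-EV samples were listed at 0. Lymphoid cells and basophils are known sources of amphiregulin. The 7 basophil and mast cell markers together summed to 0.691 to 4.05 TPM in any sample. The 9 lymphocyte markers, summed, were at 18 to 37.8 TPM after PBS, 21.1 to 31.9 TPM after HEK-EV and 41.9 to 45.9 TPM after MSC-EV, and 4 of the 9 were tested. Of those 4, Nkg7 was called higher after MSC-EV than after PBS (0.70, adjusted p = 0.0424) and than after HEK-EV (0.66, adjusted p = 0.0468). Il7r made up most of each sum, at 12.3 to 29.0 TPM after PBS, 14.2 to 20.4 after HEK-EV and 30.1 to 36.3 after MSC-EV. It was not called against PBS (adjusted p = 0.076) or HEK-EV (adjusted p = 0.0878). Cd3d, which was not tested, went the other way, at 0.294 to 0.359 TPM after PBS and 0 to 0.256 after MSC-EV. The part of these cells in the Areg values was not tested. Areg did not reach 1 TPM in any sample and was not tested. The other 8 genes were above 1 TPM in all 9 samples and were tested.

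**Figure D1:**
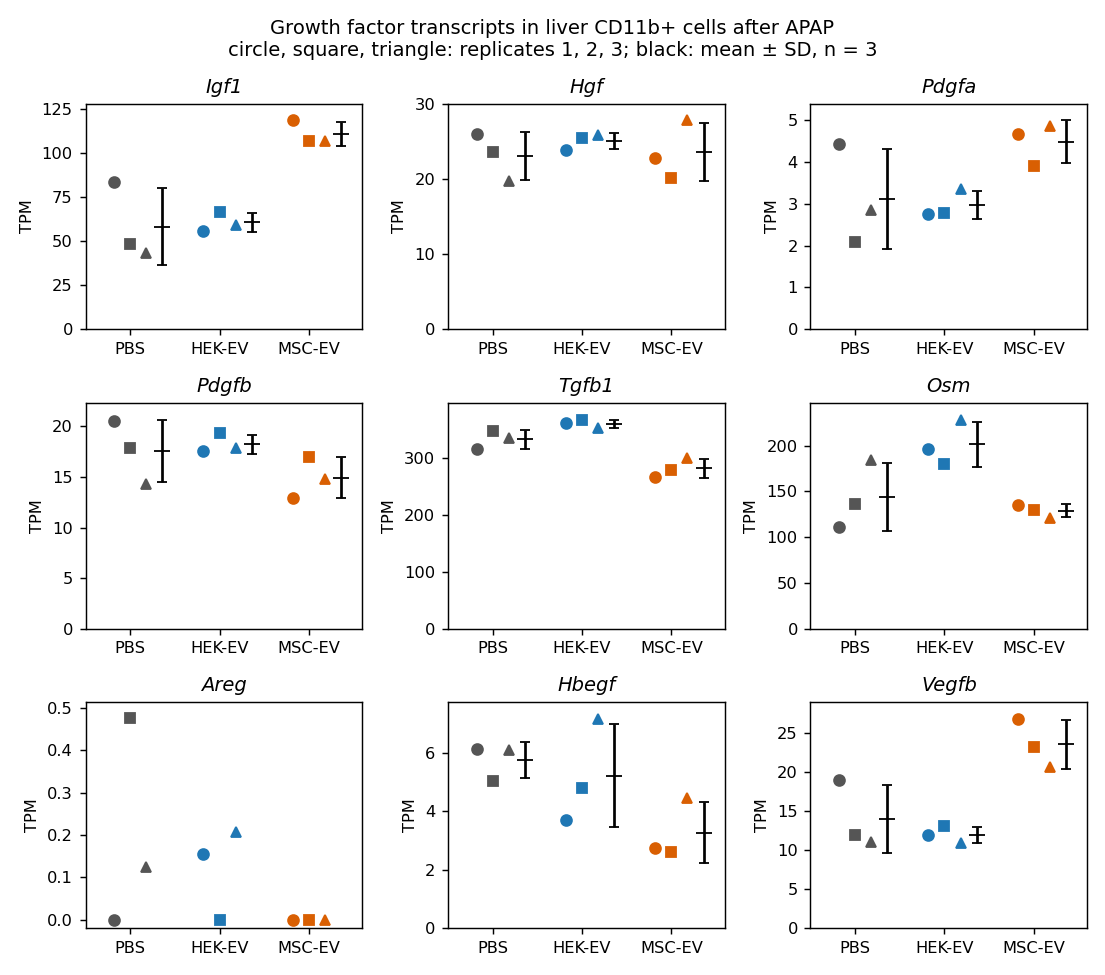
TPM (vertical axes, each starting at or just below 0) of the 9 growth factor genes in every sample, with groups on the horizontal axis and the mean ± SD (n = 3) in black, omitted for Areg. Igf1 and Vegfb are higher in all 3 MSC-EV samples than in any other sample, and Tgfb1 is lower in all 3 than in any other.

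The DNA upstream of the start is shown for the genes at both ends of this range and for a gene within it. The 250 bases before the annotated start are given for Tgfb1 (the most abundant), Vegfb (within the range, higher after MSC-EV) and Areg (near 0), 5′ to 3′ on the gene's strand, from RefSeq, build GRCm38.p6. The promoter table matched 6 of the 9 genes. Osm, Pdgfb and Hbegf were not matched. Capitals mark matches, on either strand, to any of 6 motifs: the TATA box TATAAA, the GC box GGGCGG, the cyclic AMP response element TGACGTCA, the E-box CACGTG, the AP-1 site TGANTCA and the STAT site TTCNNNGAA, with N for any base.
Tgfb1, chr7:25686752-25687001, plus strand: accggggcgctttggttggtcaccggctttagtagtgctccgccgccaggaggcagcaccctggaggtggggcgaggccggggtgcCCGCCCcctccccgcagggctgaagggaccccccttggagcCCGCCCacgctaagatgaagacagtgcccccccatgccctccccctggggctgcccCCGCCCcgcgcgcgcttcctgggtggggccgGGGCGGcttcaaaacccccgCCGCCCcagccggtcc
Vegfb, chr19:6987652-6987901, minus strand: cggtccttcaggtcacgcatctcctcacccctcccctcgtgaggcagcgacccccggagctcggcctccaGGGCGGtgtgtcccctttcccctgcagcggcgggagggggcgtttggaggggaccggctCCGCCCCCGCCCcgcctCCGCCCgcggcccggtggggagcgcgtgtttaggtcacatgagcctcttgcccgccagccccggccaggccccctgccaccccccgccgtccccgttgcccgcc
Areg, chr5:91139349-91139598, plus strand: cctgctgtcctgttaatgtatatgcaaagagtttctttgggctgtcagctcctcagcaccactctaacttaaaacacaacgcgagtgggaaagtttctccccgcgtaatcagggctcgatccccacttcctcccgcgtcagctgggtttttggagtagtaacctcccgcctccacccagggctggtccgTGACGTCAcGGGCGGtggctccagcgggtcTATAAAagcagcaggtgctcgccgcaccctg

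The Tgfb1 and Vegfb windows had GC contents of 75.2% and 76.4%, against a median of 52.4% over all 32851 windows of that length in the table, and held 5 and 4 GC boxes. Neither held any of the other 5 motifs. The Areg window had a GC content of 57.2% and held 1 cyclic AMP response element, 1 GC box next to it and 1 TATA box. The TATA box letters occur in 12.4% of all windows, the GC box in 32.7%, the cyclic AMP response element in 1.55%, the E-box in 6.02%, the AP-1 site in 6.75% and the STAT site in 7.02%. Matched motifs did not share bases with each other in these 3 windows. These matches describe letters and were not tested for function.

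MSC-EV was compared with PBS to ask which of the factors changed with the MSC vesicles. Igf1 and Vegfb rose, no factor fell past the threshold, and the Hgf values of the groups overlapped. Of the 8 growth factor genes tested, 2 were called higher and 0 lower at an adjusted p under 0.05 (limma), where 1.86% of the 13820 genes tested were called higher and 3.25% lower. The groups did not overlap for 4 of the 8 genes, against 26.0% of all genes tested (11.2% higher and 14.9% lower), with 2 in each direction. The median log2 difference of the 8 was -0.05, beside 0.01 over all genes tested. Without the 2 libraries with most acinar transcripts 0 of the 8 growth factors and 0 of all genes were called, with differences of 0.99 for Igf1 (adjusted p = 0.091) and 0.83 for Vegfb (adjusted p = 0.0942).

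Igf1 (gene ID 16000, chromosome 10, 87858265 to 87937047, mm10 coordinates as in the files) was at 83.5, 48.5 and 43.4 TPM in PBS replicates 1 to 3 and at 56.1, 67.0 and 59.2 TPM in HEK-EV replicates 1 to 3. It was at 119, 107 and 107 TPM after MSC-EV. The antisense gene Igf1os, which overlaps Igf1, reached at most 0.454 TPM. All 3 MSC-EV samples lay above the other 6, and PBS replicate 1 was the highest of those 6. The log2 difference from PBS was 0.97 (SE 0.201, adjusted p = 0.0321), with a 95% interval of 0.52 to 1.42. The call was lost without PBS replicate 2 (0.87, adjusted p = 0.14), PBS replicate 3 (0.79, adjusted p = 0.103), MSC-EV replicate 1 (0.92, adjusted p = 0.129), MSC-EV replicate 2 (0.99, adjusted p = 0.0872), MSC-EV replicate 3 (0.99, adjusted p = 0.0589) or HEK-EV replicate 2 (0.97, adjusted p = 0.0528). It was also lost with acinar transcripts as a covariate (0.93, adjusted p = 0.117), and with depth as a covariate the difference was 1.60 (adjusted p = 0.00484). Depth was highest in the MSC-EV group, so the fit with depth cannot separate depth from group.

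The ratio of Igf1 to Tgfb1 within a sample does not depend on how a sample is scaled. It was 0.265, 0.14 and 0.13 after PBS, 0.156, 0.183 and 0.168 after HEK-EV and 0.446, 0.384 and 0.358 after MSC-EV. Igf1 was higher and Tgfb1 lower in all MSC-EV samples than in any other sample. The MSC-EV ratios therefore had to lie above all others, which is no separate result. Relative to Csf1r, the receptor that marks monocytes and macrophages, Igf1 was at 0.0762, 0.0421 and 0.0459 after PBS and 0.115, 0.112 and 0.0994 after MSC-EV.

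Markers of other cells moved with Igf1. The 6 lipid-associated macrophage markers (Gpnmb, Trem2, Fabp5, Spp1, Cd63 and Atp6v0d2), summed, were at 3436, 1629 and 1839 TPM in PBS replicates 1 to 3, 2107 to 2228 TPM after HEK-EV and 4149 to 5792 TPM after MSC-EV, and 5 of the 6 were called higher than in PBS. PBS replicate 1, the highest in Igf1 outside the MSC-EV group, was also the highest in these markers outside it. The ratio of Igf1 to Gpnmb went the other way, at 0.118 to 0.172 after PBS and 0.0695 to 0.101 after MSC-EV. In the order listed, the log2 differences of the 6 markers from PBS were 1.80, 0.54, 2.06, 0.91, 1.16 and 2.28, beside 0.97 for Igf1. The direction of such a ratio therefore depends on the marker chosen. The 8 hepatocyte markers, summed, were at 218 to 294 TPM after PBS, 155 to 322 after HEK-EV and 406 to 521 after MSC-EV, with none of the 8 at 0 in any sample and 2 of the 8 called higher than in PBS. Among the PBS samples the hepatocyte sum was highest in replicate 3 (294 TPM), which held the least Igf1. PBS replicate 1 was also the highest outside the MSC-EV group in the lymphocyte marker sum (37.8 TPM) and in Pf4 (197 TPM). Such single samples do not assign the Igf1 values to a cell type. The part of either cell type in the Igf1 difference was not tested, and in bulk RNA more cells of a type and more RNA per cell cannot be told apart.

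Vegfb (gene ID 22340, chromosome 19, 6982472 to 6987651) was at 19.0, 11.9 and 11.0 TPM after PBS, 11.9, 13.04 and 10.9 TPM after HEK-EV and 26.9, 23.2 and 20.7 TPM after MSC-EV. All 3 MSC-EV samples were above the other 6, of which PBS replicate 1 was again the highest. The log2 difference from PBS was 0.74 (SE 0.18, adjusted p = 0.0481), just past the threshold. It remained above 0 without each of the 9 samples in turn, at 0.61 to 0.97, but passed the threshold without PBS replicate 1 alone (adjusted p = 0.00241). The adjusted p was 0.0598 without HEK-EV replicate 3, 0.0617 without MSC-EV replicate 3, 0.062 without HEK-EV replicate 1, 0.0734 without HEK-EV replicate 2, 0.125 without MSC-EV replicate 2, 0.144 without PBS replicate 3, 0.169 without MSC-EV replicate 1 and 0.187 without PBS replicate 2. With acinar transcripts as a covariate the call was lost (0.74, adjusted p = 0.147). With depth as a covariate, which cannot be separated from the group, the difference was 1.25 (adjusted p = 0.0083). The lipid-associated macrophage and hepatocyte sums given for Igf1 were, like Vegfb, higher in all 3 MSC-EV samples than in the other 6, and their part in the Vegfb values was not tested.

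Tgfb1 (gene ID 21803, chromosome 7, 25687002 to 25705077) was at 315, 347 and 334 TPM after PBS and 266, 278 and 299 TPM after MSC-EV. All 3 MSC-EV samples were below all 3 PBS samples, with a log2 difference of -0.24 (SE 0.0595) that did not pass the threshold (adjusted p = 0.0522). It passed without PBS replicate 1 (-0.28, adjusted p = 0.0213) and likewise when MSC-EV replicate 3 was left out (-0.28, adjusted p = 0.0483). With array quality weights it passed as well (-0.32, adjusted p = 0.00165).

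Hbegf (gene ID 15200, chromosome 18, 36504927 to 36515805) was at 6.11, 5.04 and 6.09 TPM after PBS, 3.71, 4.78 and 7.16 TPM after HEK-EV and 2.75, 2.58 and 4.45 TPM after MSC-EV. The MSC-EV samples lay below the PBS samples without overlap, and the log2 difference of -0.68 (SE 0.218) did not pass the threshold (adjusted p = 0.0983). Of its alternatives, array quality weights alone took it past (-0.64, adjusted p = 0.0182). The 7 endothelial markers (Pecam1, Kdr, Stab2, Clec4g, Cdh5, Tek and Oit3), summed, moved with it. They were at 352, 317 and 278 TPM after PBS, 189, 304 and 402 TPM after HEK-EV and 169, 121 and 235 TPM after MSC-EV, and 7 of 7 were below PBS after MSC-EV with 0 called. HEK-EV replicate 3 was the highest and MSC-EV replicate 2 the lowest of the 9 samples in both measures. The ratio of Hbegf to Cdh5, the endothelial cadherin, was 0.069 ± 0.0146 after PBS, 0.0637 ± 0.00595 after HEK-EV and 0.0644 ± 0.00829 after MSC-EV, with overlap in every comparison. The 6 Kupffer cell markers, summed, also moved with Hbegf, at 3130, 2953 and 2604 TPM after PBS, 1775, 2929 and 3664 TPM after HEK-EV and 1854, 1460 and 2538 TPM after MSC-EV, with HEK-EV replicate 3 again the highest, MSC-EV replicate 2 the lowest and 0 of the 6 called. The part of either cell type in the Hbegf values was not tested.

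Neither of the platelet-derived growth factors passed the threshold, and their differences from PBS had opposite signs. Pdgfa (gene ID 18590, chromosome 5, 138976014 to 139000792) was at 4.42, 2.08 and 2.85 TPM after PBS, 2.76, 2.78 and 3.34 TPM after HEK-EV and 4.67, 3.89 and 4.86 TPM after MSC-EV (log2 difference from PBS 0.45, SE 0.191, adjusted p = 0.198). PBS replicate 1 overlapped the MSC-EV samples. Pdgfa passed the threshold without that sample (0.67, adjusted p = 0.021), with depth as a covariate (0.92, adjusted p = 0.0381) and with array quality weights (0.75, adjusted p = 0.0048), and was at 0.26 without PBS replicate 2 (adjusted p = 0.545). Pdgfb (gene ID 18591, chromosome 15, 79995865 to 80024614) was at 20.5, 17.8 and 14.3 TPM after PBS, 17.6, 19.3 and 17.9 TPM after HEK-EV and 12.9, 17.0 and 14.8 TPM after MSC-EV (-0.22, SE 0.132, adjusted p = 0.379). The PBS and MSC-EV samples overlapped. The Pdgfb difference ranged from -0.35 to -0.10 as each sample was left out, the ends being those without PBS replicate 3 and PBS replicate 1, and it was 0.0099 with depth as a covariate. The ratio of Pdgfa to Pdgfb, the chains that pair as homodimers or as a heterodimer, was 0.215, 0.116 and 0.199 after PBS and 0.361, 0.229 and 0.327 after MSC-EV, without overlap. Pdgfb overlaps the microRNA gene Mir7213 on the same strand, which reached 1.03 TPM, so that a small part of its signal is uncertain.

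Hgf (gene ID 15234, chromosome 5, 16553495 to 16619439) was at 26.0, 23.6 and 19.8 TPM after PBS, 23.9, 25.5 and 25.9 TPM after HEK-EV and 22.9, 20.2 and 27.8 TPM after MSC-EV. The groups overlapped, and the 95% interval of the log2 difference between MSC-EV and PBS ran from -0.25 to 0.31 around 0.03 (SE 0.125, adjusted p = 0.921). Its sign changed in several alternative fits.

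Osm (gene ID 18413, chromosome 11, 4236785 to 4241026) was at 111, 136 and 185 TPM after PBS, 196, 180 and 229 TPM after HEK-EV and 136, 130 and 122 TPM after MSC-EV. The PBS samples overlapped both vesicle groups, and the log2 difference between MSC-EV and PBS was -0.13 (SE 0.161, adjusted p = 0.698). This value was unstable, at -0.53 with depth as a covariate (adjusted p = 0.108), -0.03 with acinar transcripts as a covariate (adjusted p = 0.965), -0.30 when PBS replicate 1 was left out (adjusted p = 0.191) and 0.07 when PBS replicate 3 was (adjusted p = 0.822).

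**Figure D2:**
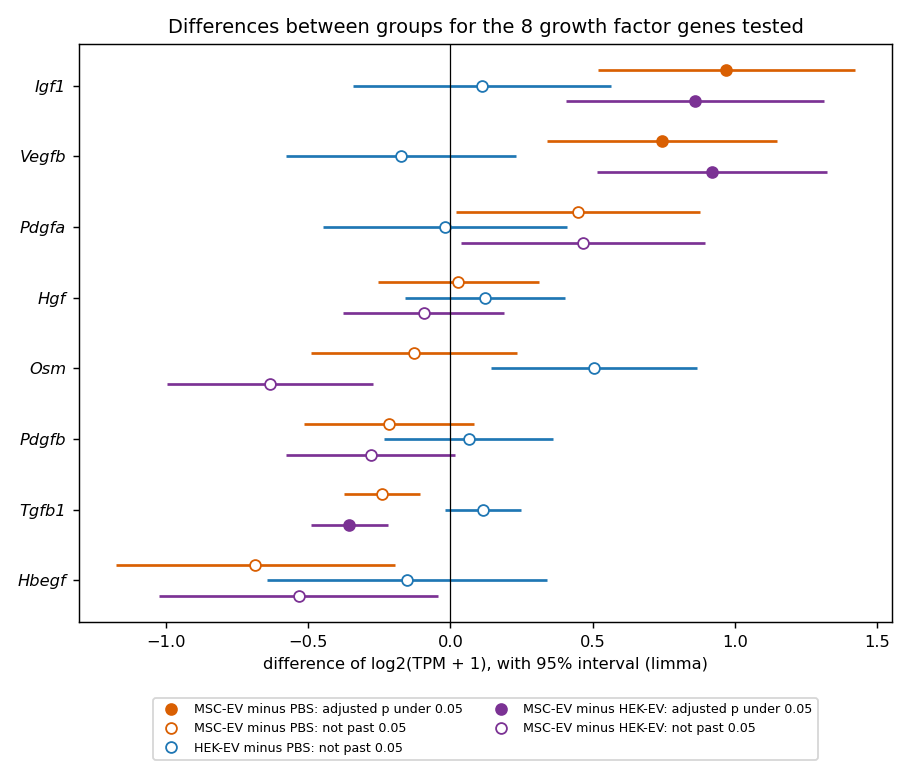
Differences between groups in log2(TPM + 1) for the 8 growth factor genes tested (points) with 95% intervals from limma (lines); filled points have an adjusted p under 0.05. Igf1 and Vegfb are the genes whose differences of MSC-EV from both other groups are called, and no difference of HEK-EV from PBS is.

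HEK-EV was compared with PBS to ask the same of vesicles from another cell source. No growth factor passed, and the largest difference was that of Osm. Of the 8 genes tested 0 were called, as were 0 of the 13820 genes tested (0.00%), and 1 of the 8 had an unadjusted p under 0.05 (limma), against 3.58% of all genes tested. The groups did not overlap for 1 of the 8, Tgfb1, against 7.81% of all genes (5.51% higher and 2.29% lower). Tgfb1 was at 361, 366 and 351 TPM after HEK-EV, above the 315 to 347 TPM of the PBS samples (log2 difference 0.11, SE 0.0595, adjusted p = 0.999). Osm had a log2 difference of 0.51 (SE 0.161, 95% interval 0.14 to 0.87, adjusted p = 0.999), and PBS replicate 3, at 185 TPM, lay above HEK-EV replicate 2, at 180 TPM. The Osm difference was 0.27 with depth as a covariate (adjusted p = 0.486) and 0.34 to 0.70 as each sample was left out, the ends being those without PBS replicate 1 and PBS replicate 3. For Igf1 the difference was 0.11 (95% interval -0.34 to 0.56) and for Vegfb -0.17 (95% interval -0.58 to 0.23), both with adjusted p = 0.999. These intervals include differences of moderate size in either direction, so the test does not show that the HEK vesicles left the genes at the level of PBS.

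The direct comparison of the vesicle sources, MSC-EV against HEK-EV, uses the same MSC-EV samples as the first comparison. Igf1 and Vegfb rose and Tgfb1 fell. Of the 8 growth factor genes tested 2 were called higher and 1 lower (limma), where 1.51% of the 13820 genes tested were called higher and 4.40% lower. The groups did not overlap for 6 of the 8 genes, against 30.1% of all genes tested (12.6% higher and 17.5% lower). Those were Igf1, Vegfb and Pdgfa, with the MSC-EV samples higher, and Tgfb1, Osm and Pdgfb, with the MSC-EV samples lower. The log2 difference was 0.86 for Igf1 (SE 0.201, adjusted p = 0.0411), 0.92 for Vegfb (SE 0.18, adjusted p = 0.0263) and -0.35 for Tgfb1 (SE 0.0595, adjusted p = 0.0215).

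Each of these 3 calls was lost without any 1 of HEK-EV replicates 1 to 3 or MSC-EV replicates 1 and 2, and none of the 8 growth factors was called in those fits. The adjusted p without each of those samples was 0.114, 0.0739, 0.107, 0.144 and 0.109 for Igf1, 0.0716, 0.0586, 0.0774, 0.107 and 0.0814 for Vegfb, and 0.0621, 0.0578, 0.0561, 0.0938 and 0.072 for Tgfb1, in that order. As each of the 9 samples was left out, the difference was 0.80 to 0.93 for Igf1 and 0.82 to 1.01 for Vegfb. For Tgfb1 it was -0.40 to -0.32. Without MSC-EV replicate 3 Igf1 was not called (adjusted p = 0.071) while Vegfb and Tgfb1 were, and likewise without PBS replicate 2 (Igf1 adjusted p = 0.0507). On FPKM Tgfb1 was not called (-0.29, adjusted p = 0.0669). With acinar transcripts as a covariate Igf1 was not called (0.85, adjusted p = 0.0651). Igf1 was also not called with a replicate block, and neither Igf1 nor Vegfb was called with no filter on low values. Without the 2 libraries with most acinar transcripts none of the 3 was called, at 0.96 for Igf1 (adjusted p = 0.117), 1.06 for Vegfb (adjusted p = 0.0742) and -0.39 for Tgfb1 (adjusted p = 0.0641).

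Osm was 202 ± 24.6 TPM after HEK-EV and 129 ± 7.16 TPM after MSC-EV, without overlap, and its log2 difference of -0.63 (SE 0.161) fell just short of the threshold (adjusted p = 0.0507). Leaving out PBS replicate 1 took it past the threshold at the same -0.63 (adjusted p = 0.017). The same held for PBS replicate 3 (adjusted p = 0.0265). It also passed when the filter was raised to 5 TPM (-0.63, adjusted p = 0.0447), with only the 6 samples compared (-0.63, adjusted p = 0.0126), with array quality weights (-0.55, adjusted p = 0.0169) and with depth as a covariate (-0.80, adjusted p = 0.0106), so in 6 of 20 alternatives. The 8 neutrophil markers, summed, moved with Osm. They were at 3011, 4078 and 5565 TPM in PBS replicates 1 to 3, 5078, 4989 and 6853 TPM after HEK-EV and 3727, 3307 and 2910 TPM after MSC-EV, with 1 of the 8, Csf3r, called lower in MSC-EV than in HEK-EV. In that comparison 7 of the 8 were below 0. Camp went the other way, at 2.30 ± 0.517 TPM after PBS, 1.91 ± 1.11 after HEK-EV and 4.50 ± 0.965 after MSC-EV. Relative to S100a9, a neutrophil alarmin subunit, Osm was at 0.0733 ± 0.00657 after PBS, 0.0718 ± 0.00321 after HEK-EV and 0.0809 ± 0.00744 after MSC-EV, with overlap in every comparison. Relative to Csf3r, the receptor for the neutrophil growth factor G-CSF, Osm was lower in all MSC-EV samples (0.27 to 0.278) than in all HEK-EV samples (0.325 to 0.347). The part of neutrophil transcripts in the Osm values was not tested.

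**Figure D3:**
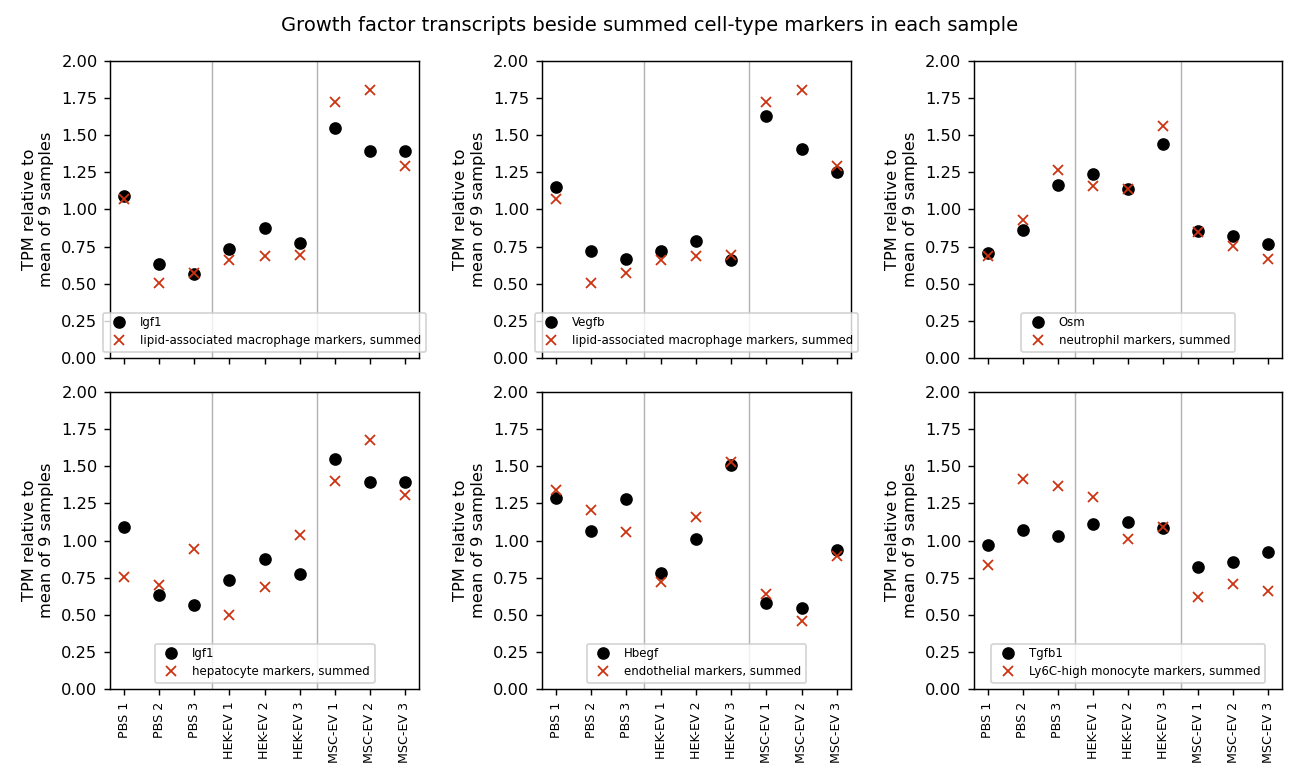
Growth factor transcripts (black circles) and summed cell-type markers (red crosses) in each of the 9 samples, both in TPM relative to their own mean over the 9 samples. Igf1, Vegfb and the lipid-associated macrophage and hepatocyte markers are all higher in the MSC-EV samples than in the others. Osm and neutrophil markers are both highest in HEK-EV replicate 3, as are Hbegf and endothelial markers. Within PBS the order of Hbegf and endothelial markers differs (Kupffer cell markers are not plotted). Tgfb1 varies less than Ly6C-high monocyte markers.

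The 6 Ly6C-high monocyte markers, summed, were at 2022 to 3417 TPM after PBS, 2439 to 3113 TPM after HEK-EV and 1487 to 1700 TPM after MSC-EV, the direction of Tgfb1. Of the 6, 3 were called lower in MSC-EV than in PBS and 2 lower than in HEK-EV. Of the 7 platelet markers, Pf4, which macrophages also express, was at 129 to 350 TPM and was called higher after MSC-EV than after PBS (0.83, adjusted p = 0.0348) and than after HEK-EV (0.86, adjusted p = 0.0292). The other 6 reached at most 1.93 TPM (Treml1), and 2 of them were tested, with 0 called. The part of these cells in the growth factor values was not tested.

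For each factor whose values spanned at least 1 on the log2 scale, the 2 tested genes with the most similar profile over the 9 samples are given as a description. The measure is the mean absolute difference of centred log2(TPM + 1). Igf1 was most like Zfp704 (0.05) and Timp2 (0.06), an inhibitor of matrix metalloproteinases that was at 35.2 to 63.5 TPM after PBS, 43.6 to 52.1 TPM after HEK-EV and 71.9 to 91.1 TPM after MSC-EV. Vegfb was most like Tmem144 (0.04) and Gpr157 (0.07). Osm was most like Cxcr2 (0.06), the chemokine receptor of neutrophils and one of the neutrophil markers used here, and H2-Q10 (0.07). Hbegf was most like Clca3a1 (0.07) and Ptgs1 (0.07), which encodes cyclooxygenase 1.

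Other genes of the same pathways were taken from 4 lists, also chosen with earlier results of these data known. Among 22 related ligands, 10 were tested and 0 were called in MSC-EV against PBS, where 5.11% of all genes tested were called (limma). The median log2 difference was -0.02, beside 0.01 over all genes tested. Vegfa, the main angiogenic ligand of the Vegfb family, was at 11.8 to 16.7 TPM after PBS and 18.4 to 25.0 TPM after MSC-EV (log2 difference 0.56, adjusted p = 0.0537). Against HEK-EV, 1 of the 10 tested ligands was called, where 5.91% of all genes tested were called (1.51% higher). It was Pdgfd, another platelet-derived growth factor chain, which rose from 1.04 ± 0.328 to 2.19 ± 0.27 TPM (0.65, SE 0.155, adjusted p = 0.0427). The other ligands of the epidermal growth factor receptor in the list were below 1 TPM in all 9 samples and were not tested. Tgfa was at 0.376 to 0.953 TPM and Egf at 0.129 to 0.386 TPM, while Btc, Ereg and Epgn reached at most 0.226, 0.079 and 0.076 TPM.

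Of 24 receptors 19 were tested, and in MSC-EV against PBS 0 were called higher and 2 lower, where 1.86% of all genes tested were called higher and 3.25% lower. Of the 19, 14 were below 0, with a median of -0.38 beside 0.01 over all genes tested. Lifr, the receptor of leukemia inhibitory factor, fell from 12.7 ± 0.324 to 7.55 ± 1.13 TPM (-0.69, SE 0.125, adjusted p = 0.0251). It was also lower than after HEK-EV (-0.83, adjusted p = 0.0205). There it was the 1 receptor called of the 19 tested, where 5.91% of all genes tested were called (4.40% lower). Flt1, the receptor that binds Vegfb, fell from 17.2 ± 3.35 to 10.4 ± 1.39 TPM (-0.67, SE 0.147, adjusted p = 0.0376). Several receptors of this list, Flt1 among them, are known as endothelial genes, and Kdr is itself one of the endothelial markers summed here. The endothelial marker sums were 278 to 352 TPM in PBS and 121 to 235 TPM in MSC-EV samples, as above. Their part in the receptor values was not tested. Met, the receptor of Hgf, was at 7.88 to 14.1 TPM after PBS, 8.76 to 12.7 TPM after HEK-EV and 5.87 to 6.55 TPM after MSC-EV. The MSC-EV samples lay below all others, and the difference did not pass the threshold (-0.68 against PBS, adjusted p = 0.075). Egfr, the receptor of Areg and Hbegf, reached at most 0.371 TPM.

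Of 31 genes that process, bind or activate the ligands, 23 were tested, and in MSC-EV against PBS 3 were called higher and 1 lower, where 1.86% of all genes tested were called higher and 3.25% lower. The median was -0.21, beside 0.01 over all genes tested. Spint2, an inhibitor of the proteases that activate Hgf, rose from 4.74 ± 0.267 to 8.05 ± 0.36 TPM (0.66, SE 0.0842, adjusted p = 0.0119), and it was also above HEK-EV (0.45, adjusted p = 0.0248). St14, which encodes matriptase, a protease that can activate Hgf and is inhibited by Spint2, rose from 1.02 ± 0.197 to 2.03 ± 0.164 TPM (0.59, SE 0.144, adjusted p = 0.0487). The 5 biliary epithelial markers, summed, moved with both, at 4.55 to 5.88 TPM after PBS, 6.13 to 7.19 TPM after HEK-EV and 11.2 to 19.4 TPM after MSC-EV. Of the 5, 4 were tested and 3 (Krt19, Epcam and Sox9) were called higher than in PBS. Their part in the Spint2 and St14 values was not tested. The transcript of Hgf itself did not pass in any comparison. Ltbp3, which binds latent transforming growth factor beta, rose from 1.83 ± 0.431 to 3.43 ± 0.281 TPM (0.66, SE 0.134, adjusted p = 0.0313).

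Nrros, which encodes a protein that holds latent transforming growth factor beta 1 on the surface of myeloid cells, fell from 302 ± 10.9 TPM after PBS to 248 ± 6.02 TPM after MSC-EV (-0.28, SE 0.0556, adjusted p = 0.03) and was at 308 ± 16.1 TPM after HEK-EV (MSC-EV against HEK-EV -0.31, adjusted p = 0.0233). Its direction and size were close to those of Tgfb1. Tgfbi, a target gene of transforming growth factor beta that is abundant in monocytes, was at 775 ± 145, 892 ± 85.3 and 529 ± 46.5 TPM for the groups in the order PBS, HEK-EV, MSC-EV. It fell against HEK-EV (-0.75, SE 0.136, adjusted p = 0.0237) and did not pass against PBS (-0.53, adjusted p = 0.0553). The Ly6C-high monocyte marker sums went the same way, at 2022 to 3417, 2439 to 3113 and 1487 to 1700 TPM in the same order of groups. Ptprc was called lower after MSC-EV than in both other groups and Itgam lower than after HEK-EV, as above. The part of these shifts in the Nrros and Tgfbi values was not tested.

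Tgfbi belongs to the list of 24 response and feedback genes, of which 20 were tested. In MSC-EV against PBS 0 of them were called, where 5.11% of all genes tested were called. The median was -0.09, beside 0.01 over all genes tested. Against HEK-EV 1 was called higher and 3 lower, where 5.91% of all genes tested were called (1.51% higher and 4.40% lower). The median there was -0.19, beside -0.02 over all genes tested. Besides Tgfbi, Bcl3 fell from 50.5 ± 5.03 to 37.1 ± 1.75 TPM (-0.43, SE 0.0992, adjusted p = 0.0387) and Spred1, an inhibitor of Ras signalling, from 47.4 ± 1.51 to 36.5 ± 3.54 TPM (-0.37, SE 0.0795, adjusted p = 0.0317). Irs2, an adaptor through which the insulin and Igf1 receptors signal, rose from 10.3 ± 0.198 to 14.8 ± 1.51 TPM (0.48, SE 0.114, adjusted p = 0.0427), and it did not pass against PBS (0.42, adjusted p = 0.0677). Igf1r, the receptor of Igf1, was at 6.97 to 8.42 TPM after PBS, 8.54 to 12.2 TPM after HEK-EV and 6.11 to 9.63 TPM after MSC-EV. The HEK-EV samples lay above the PBS samples without overlap, and the difference did not pass (0.34, adjusted p = 0.999). None of the 4 lists had a gene called in HEK-EV against PBS, where 0.00% of all genes tested were called.

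**Figure D4:**
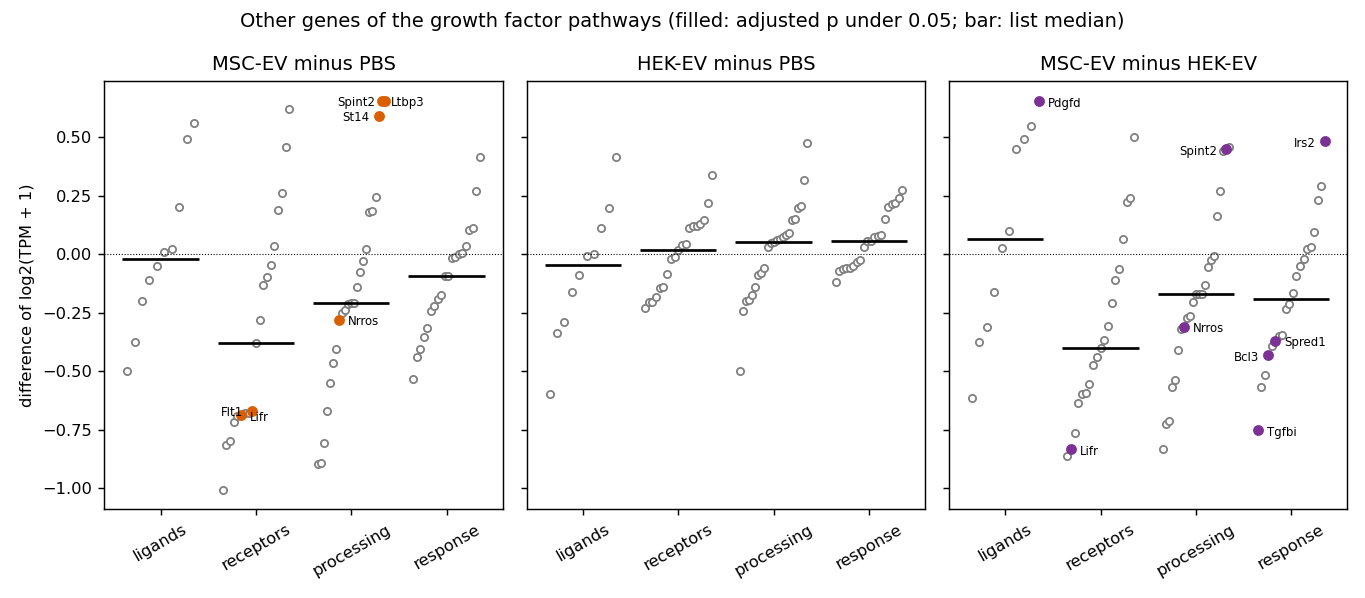
Differences in log2(TPM + 1) for the tested genes of 4 lists of related ligands, receptors, processing genes and response genes in each comparison; filled and named points have an adjusted p under 0.05 and bars are list medians. Named genes are Lifr, Flt1, St14, Spint2, Ltbp3 and Nrros against PBS and Pdgfd, Lifr, Spint2, Nrros, Tgfbi, Bcl3, Spred1 and Irs2 against HEK-EV, and none for HEK-EV against PBS.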

How the data were processed

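RNA of liver CD11b+ cells was sequenced in 9 mouse samples, 3 in each of 3 groups taken from the labels. Per the file headers, the authors deposited for each gene a TPM value, an FPKM value and a coverage signal, 1 table per sample. HISAT2 2.1.0, StringTie and build mm10 are named in the submitters' processing notes, and the annotation and strand setting are not given in the sources used here. Gene IDs were matched to RefSeq symbols of GRCm38.p6 (45679 of 45777, 99.8%). TPM is a share of each library, so a few abundant transcripts lower all others.

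A gene was tested where 3 or more of the 9 samples reached 1 TPM (13820 genes). Tests were run on log2(TPM + 1) with limma 3.58.1 in R 4.3.3, all 9 samples in 1 fit with a mean-variance trend, and p-values were adjusted over all genes tested (Benjamini-Hochberg, threshold 0.05, two-sided). Fold changes on this scale understate those of low genes. On simulated data for MSC-EV against PBS the test recovered 85% of 2-fold and 97.6% of 4-fold changes in TPM + 1 over 13820 genes. The simulated noise was normal and independent for each gene, without shifts shared across a library. These percentages are therefore not the power of the test in these data. Other steps used Python 3.11.15, numpy 2.4.6, pandas 2.3.3 and matplotlib 3.10.9.

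The growth factors and all gene lists were chosen with earlier results of these data known. All 9 growth factors were named, with every list gene past the threshold in any comparison and, for growth factors spanning at least 1 on the log2 scale, the 2 genes with the most similar values. Vegfa, Tgfa, Egf, Btc, Ereg, Epgn, Igf1r, Met and Egfr were named outside this rule, after their values were seen. Alternatives changed the pseudocount, the minimum, the unit, the scaling, covariates, weights and the samples used. Leaving out the 2 libraries with most acinar transcripts was chosen after seeing the data.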

Additional observations from a re-analysis of the deposited data

How the results depend on the processing

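In MSC-EV against PBS, 2 growth factors and 706 genes were called (257 higher, 449 lower). The growth factor count was 0 with no filter on low values, 0 with acinar transcripts as a covariate, 0 with only the 6 samples compared, 0 without the 2 libraries with most acinar transcripts, 3 with depth as a covariate, 5 with array quality weights, and 0 to 4 leaving out each sample in turn. The count of all genes was 361 with no filter, 404 with a replicate block, 1377 with depth as a covariate, 15 with the acinar covariate, 4163 with weights, 167 with only the 6 samples, 0 without the 2 libraries, and 5 to 1881 leaving out each sample. The split of higher and lower calls was 350 and 205 on FPKM and 288 and 322 with median-of-ratios scaling. In MSC-EV against HEK-EV, 3 growth factors and 817 genes were called (209 higher, 608 lower). The growth factor count was 1 with no filter, 5 with depth as a covariate, 0 without the 2 libraries, and 0 to 4 leaving out each sample. The count of all genes was 387 with no filter, 459 on FPKM (273 higher, 186 lower), 512 with median-of-ratios scaling (237 higher, 275 lower), 448 with a replicate block, 1478 with depth, 484 with the acinar covariate, 2081 with weights, 0 without the 2 libraries, and 0 to 1384 leaving out each sample. In HEK-EV against PBS, 0 growth factors were called in every fit, and 0 genes in all, 4 with no filter and 0 to 2 leaving out each sample.

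Signs changed only for differences that were not called. In MSC-EV against PBS, Pdgfb was 0.0099 with depth, Hgf was -0.0906 with the acinar covariate, -0.0078 with weights, -0.0917 without the 2 libraries and -0.0917 to 0.13 leaving out each sample, and Osm was -0.30 to 0.0657 leaving out each sample. In HEK-EV against PBS, Pdgfa was 0.26 with depth, 0.24 with weights and 0.0136 without the 2 libraries, and Vegfb was 0.12 with depth and 0.0137 with weights. Leaving out each sample there gave -0.21 to 0.20 for Pdgfa, -0.31 to 0.0518 for Vegfb, -0.07 to 0.39 for Igf1 (-0.0700 without PBS replicate 3), -0.0671 to 0.18 for Pdgfb and -0.37 to 0.0295 for Hbegf. In MSC-EV against HEK-EV, Hgf was 0.0115 with depth and -0.21 to 0.0097 leaving out each sample. The cause of these changes was not tested.

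Replicate numbers are shared across groups, but no label says that they pair the samples. Deviations of same-numbered samples correlated at -0.50 to 0.06, and 3 of 18 matches were best with their own number, so the numbers were not taken as pairs. With a replicate block, Igf1 was no longer called in MSC-EV against HEK-EV (0.86, adjusted p = 0.0564), and no other growth factor call changed. Depth in reads is unknown, so counting error could not be separated from the spread between samples.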
